A study of Mus musculus with 12 samples.

Results

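The granule cell marker genes are 10 genes that mark the granule neurons of the cerebellum: Gabra6, Gabrd, Cbln3, Neurod1, Zic1, Zic2, Pax6, Fat2, Slc17a7 and Reln. They were chosen by name and found in the count tables by Ensembl identifier, 10 of the 56941 genes listed. All 10 were among the 20341 genes with enough counts to be tested, with between 1881 and 68300 read pairs per gene and library. Their levels are given as CPM, a gene's count relative to the library total after TMM scaling, so that libraries of different depth can be compared.

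RNA of the whole cerebellum was sequenced from 12 mice, 3 per group, after depletion of ribosomal RNA. WT sedentary mice carried normal Atxn1 alleles and had no wheel, and WT exercise mice had a running wheel in the cage from 4 to 16 weeks of age. SCA1 sedentary and SCA1 exercise mice were Atxn1154Q/2Q, a knock-in model of spinocerebellar ataxia type 1 in which the expanded allele sits in the mouse's own Atxn1 gene and is therefore not limited to 1 cell type, and they were kept without or with a wheel over the same ages. All were C57BL/6J littermates of both sexes, the labels give no sex per mouse, and tissue was taken at 16 weeks or soon after. Genes of chromosome Y summed to 12.8, 16.2, 27.3 and 21.2 CPM in mice 201, 194, 55 and 122. In the other libraries they summed to 222 to 285 CPM. By this measure all WT sedentary mice were male and each other group held both sexes, so sex was not balanced across groups. Running mice were housed alone and sedentary mice in groups, so running and housing cannot be told apart. Per the study's methods, wheels were removed before behavioural testing, and tissue was collected after the last test. The values of running mice thus describe mice after a period with a wheel, not during running. Libraries are named by the mouse number of the labels.

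Granule neurons are the most numerous neurons of the brain. They receive mossy fibre input, are held under GABA-mediated inhibition by Golgi cells, and send parallel fibres that release glutamate onto Purkinje cells. The members cover these functions: Gabra6 and Gabrd encode subunits of GABA-A receptors, Slc17a7 encodes the vesicular glutamate transporter VGLUT1, Cbln3 a secreted partner of the synapse organizer Cbln1, Fat2 a protocadherin of parallel fibres, Reln the secreted signal reelin, and Neurod1, Zic1, Zic2 and Pax6 transcription factors. Some are also used elsewhere in the brain, such as Slc17a7, Neurod1 and Pax6 in forebrain neurons.

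The library total on the counted strand lay between 20556802 and 32127508 read pairs, and TMM factors between 0.987 and 1.02. Libraries of SCA1 sedentary mouse 16 and SCA1 exercise mouse 55 stood apart from the other 10. Multimapped read pairs made up 6.38% and 6.33% of them, against 2.08% to 3.46% in the others. The summed level of a brainstem list (Hoxb3, Hoxb4, Hoxb5, Hoxa5 and Chat, of which the first 4 mark positional identity of the hindbrain) was 32.1 CPM in mouse 16 and 34.1 CPM in mouse 55, and between 0.0417 and 2.42 CPM in the others, where up to 4 of the 5 genes were at 0. Oligodendrocyte genes summed to 6597 and 5335 CPM in the same mice, against 2362 to 3954 CPM in the others, and microglia genes to 105 and 82.1 CPM, against 50.4 to 68.7 CPM. Interneuron and Golgi cell genes were also higher, at 1457 and 1644 CPM, against 1124 to 1408 CPM. Unipolar brush cell genes (569 and 559 against 652 to 747 CPM) and endothelial genes (89.2 and 90.7 against 99.5 to 133 CPM) were lower. Purkinje cell genes were lowest in mouse 16 (4504 CPM). Mouse 55 (7527 CPM) lay within the 5740 to 8505 CPM of the others. Bergmann glia and astrocyte genes summed to 1319 and 1636 CPM, against 1099 to 1583 CPM. A cortex and forebrain list summed to 7.45 CPM in mouse 16 and 7.34 CPM in mouse 55, against 5.29 to 7.07 CPM in the others. Choroid plexus genes ranged from 6.19 to 1866 CPM without setting mice 16 and 55 apart. In bulk tissue, fewer cells of a type and less RNA per cell cannot be told apart, and the part of other tissue in the members' levels was not tested; each comparison is given with and without these mice.

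**Figure D1:**
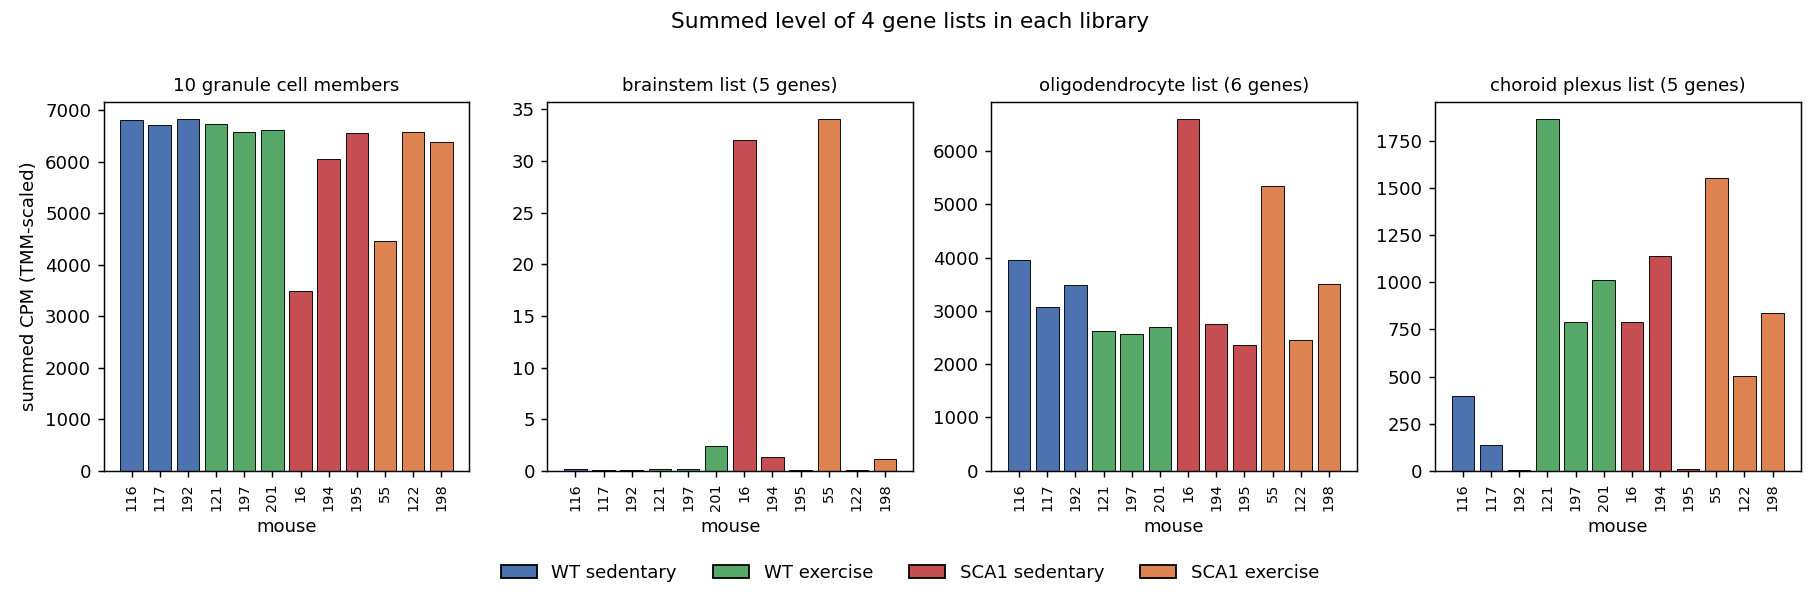
Bars show the summed CPM of 4 gene lists (y axis, one scale per panel, starting at 0) in each of the 12 mice (x axis), coloured by group. The members sum to 3486 CPM in mouse 16 and 4470 CPM in mouse 55, below each of the other 10 libraries, and the same mice hold the highest brainstem and oligodendrocyte sums.

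The members together took 0.348% of the counts in mouse 16 and 0.445% in mouse 55, against 0.619% to 0.673% in the other 10 libraries. Mouse 16 had the lowest level of all 12 libraries for each of the 10 members, at 45.8% (Neurod1) to 74.9% (Slc17a7) of the median of the other 10. Mouse 55 lay at 60.7% (Fat2) to 80.0% (Zic1) of that median. For 8 members both mice were below each of the other 10 libraries, and for Cbln3 and Zic1 mouse 194 was below mouse 55. Among all genes tested, 13.9% had both mice below the rest.

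Compared per kilobase of annotated exon, over all 12 libraries, Gabra6 had the highest level of the members at 178 ± 33.2 CPM per kb (SD, n = 12). It was followed by Cbln3 at 171 ± 35.1, Fat2 at 140 ± 30.1 and Zic1 at 123 ± 19.7 CPM per kb, and each of the first 3 exceeded the next by less than its own SD. Gabra6 was first in 3 of the 4 groups, and in WT exercise mice Cbln3 was first, at 199.9 against 185 CPM per kb for Gabra6. Neurod1 at 75.0 ± 17.9, Zic2 at 70.6 ± 13.9 and Slc17a7 at 69.4 ± 8.40 CPM per kb formed a second level, below Zic1 by more than 1 SD. Reln at 41.5 ± 7.55, Gabrd at 21.1 ± 4.56 and Pax6 at 7.79 ± 1.49 CPM per kb were each more than 1 SD below the one before. Per kilobase of the longest transcript, Slc17a7 rose to 123 and Reln to 84.3 CPM per kb, and the order from the fifth place became Slc17a7, Reln, Zic2 and Neurod1. In WT sedentary mice, 9 of the 10 members lay at or above percentile 94.5 of 20212 tested genes in level per kb, and Pax6 at percentile 75.6.

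The 250 bases upstream of the annotated start are shown for 3 members whose window lies outside their own annotated gene. Exons of other genes in these windows were not looked up. Shown are Gabra6, the highest member per kb over the 12 libraries, and Fat2, which was the furthest below the rest in mouse 55. Reln is also shown, which ran opposite to most other members once mice 16 and 55 were left out. Capitals mark the E-box CANNTG, the form of site bound by bHLH factors such as Neurod1, and TTGGCA, a core of the nuclear factor I site, on either strand. In the Gabra6 window the capitals are TTGGCA read on the other strand, in Fat2 and Reln they are an E-box, and no match of one motif overlapped a match of the other. The windows are on the minus strand of GRCm39, read 5′ to 3′ along the gene, at chr11:42211911-42212160 for Gabra6, chr11:55227484-55227733 for Fat2 and chr5:22549701-22549950 for Reln.
Gabra6: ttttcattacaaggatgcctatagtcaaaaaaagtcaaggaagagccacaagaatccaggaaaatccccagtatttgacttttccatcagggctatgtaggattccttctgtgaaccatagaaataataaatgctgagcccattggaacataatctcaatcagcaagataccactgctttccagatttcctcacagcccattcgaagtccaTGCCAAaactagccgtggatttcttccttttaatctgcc
Fat2: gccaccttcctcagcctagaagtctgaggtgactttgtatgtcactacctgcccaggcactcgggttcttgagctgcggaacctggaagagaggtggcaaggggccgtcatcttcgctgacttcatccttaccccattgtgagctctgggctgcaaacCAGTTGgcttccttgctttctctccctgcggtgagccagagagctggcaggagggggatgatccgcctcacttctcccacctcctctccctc
Reln: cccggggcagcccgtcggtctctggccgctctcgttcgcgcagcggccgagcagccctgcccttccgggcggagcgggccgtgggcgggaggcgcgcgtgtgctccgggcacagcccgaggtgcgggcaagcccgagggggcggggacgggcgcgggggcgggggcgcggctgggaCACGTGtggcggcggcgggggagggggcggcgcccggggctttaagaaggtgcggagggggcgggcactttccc
An E-box was present upstream of 8 of the 10 members, all but Gabra6 and Pax6, and upstream of 64.8% of 21770 protein-coding genes. Of the E-box forms searched, CACGTG was found for 4 members (Gabrd, Neurod1, Reln and Zic1) and in 6.26% of all windows. CAGATG was found for 1 member (Neurod1) and in 13% of all windows, and CAGCTG for 2 members (Gabrd and Zic2) and in 11.9%. TTGGCA was found for 2 members, Gabra6 and Cbln3, and in 12.3% of all windows. These are matches of letters, not binding sites.

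**Figure D2:**
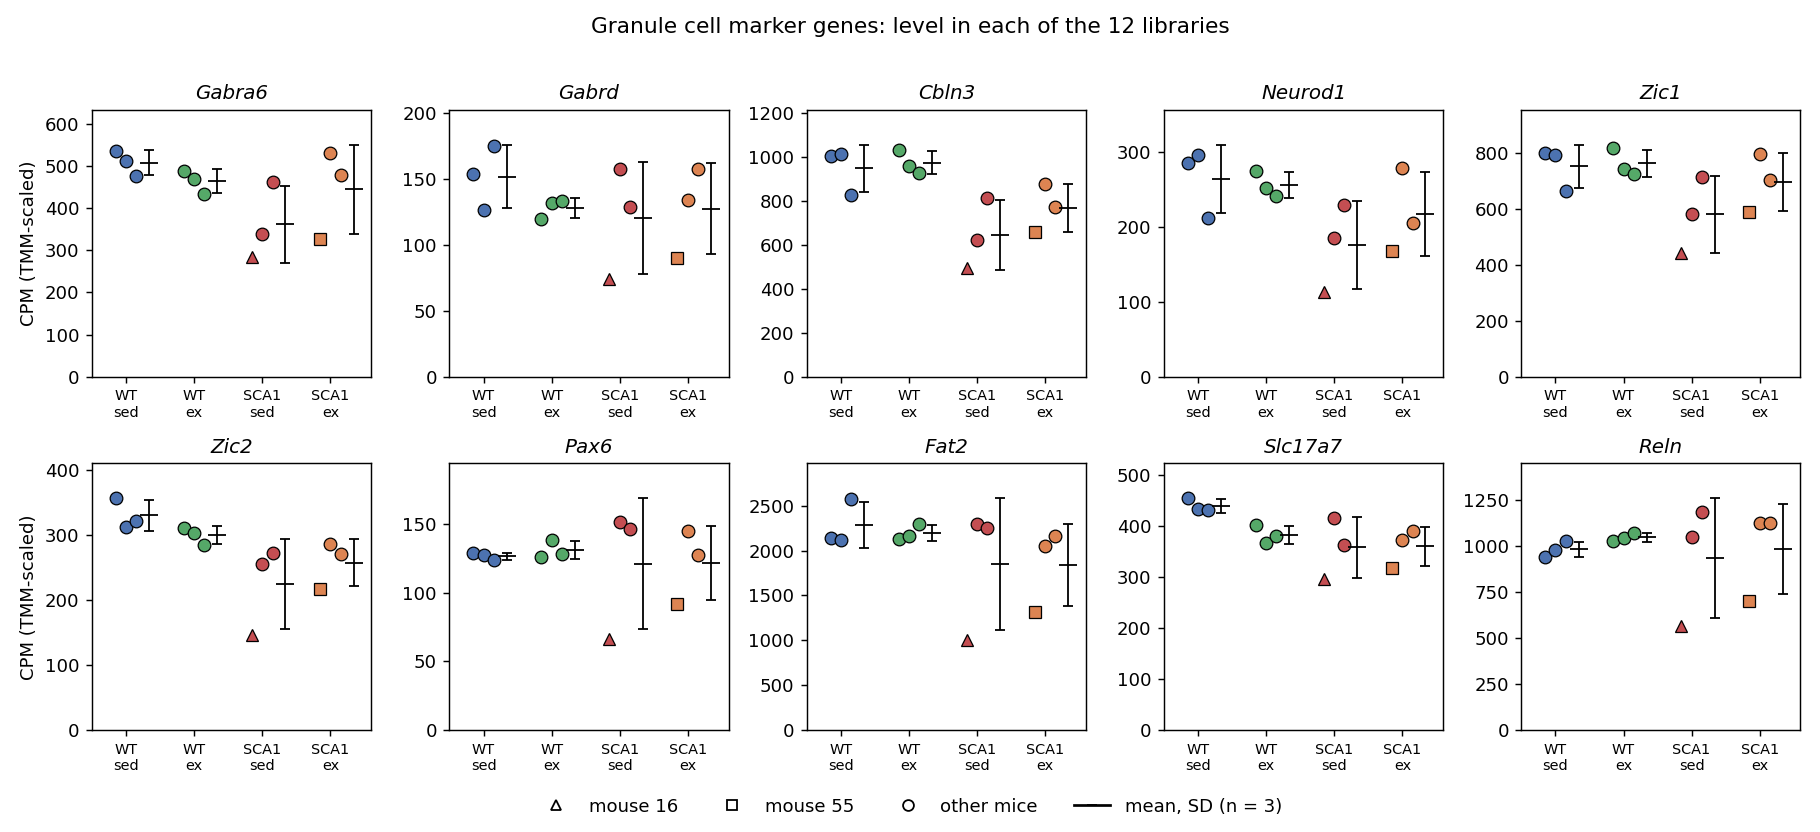
Each panel shows the CPM of 1 member (y axis from 0) in every library, by group (x axis), with the mean and SD of 3 mice beside the points. Mouse 16 (triangle) is the lowest point in all 10 panels, and mouse 55 (square) is the lowest of its group in all 10.

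Gabra6 (ENSMUSG00000020428, chr11:42197264-42211910), the α6 subunit of GABA-A receptors, which in the brain is nearly private to granule cells, was at 535, 511 and 477 CPM in WT sedentary and 488, 469 and 432 CPM in WT exercise mice. It was at 284, 338 and 461 CPM in SCA1 sedentary mice 16, 194 and 195 and at 327, 529 and 478 CPM in SCA1 exercise mice 55, 122 and 198. Every SCA1 sedentary mouse was below every WT sedentary mouse, and mouse 194 was nearly as low as mouse 55. The mean was 507 ± 29.4 CPM in WT sedentary and 361 ± 90.6 CPM in SCA1 sedentary mice (SD, n = 3 each). The log2 fold change of -0.49 (SE 0.19) did not pass the adjustment over all genes in edgeR's quasi-likelihood test (adjusted p = 0.414). Without mice 16 and 55 it was -0.33 (SE 0.12).

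Gabrd (ENSMUSG00000029054, chr4:155469407-155482872), the δ subunit that joins α6 in extrasynaptic receptors for tonic inhibition, was at 153.8, 127 and 175 CPM in WT sedentary and 119.7, 132 and 133 CPM in WT exercise mice. In SCA1 sedentary mice it was at 74.2, 158 and 129 CPM and in SCA1 exercise mice at 90.1, 134 and 158 CPM. Mice 16 and 55 were low and the other SCA1 mice lay within the WT range. The SCA1 sedentary against WT sedentary difference was -0.34 on the log2 scale (SE 0.25, edgeR adjusted p = 0.680), and -0.064 (SE 0.12) without these mice.

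Cbln3 (ENSMUSG00000040380, chr14:56116370-56121849), a secreted protein that assembles with Cbln1 in granule cells, was at 1006, 1014 and 825 CPM in WT sedentary and 1032, 959.5 and 927 CPM in WT exercise mice. It was at 496, 623 and 812 CPM in SCA1 sedentary and at 658, 874 and 773 CPM in SCA1 exercise mice. Both SCA1 groups lay wholly below the WT group of the same activity, and mouse 195 at 812 CPM was just below the lowest WT sedentary mouse at 825 CPM. Cbln3 had the lowest adjusted p of the members in sedentary mice, with a log2 fold change of -0.56 (SE 0.17, edgeR adjusted p = 0.302). The value was -0.38 (SE 0.13, edgeR adjusted p = 0.120) without mice 16 and 55. Cbln1, its secreted partner, was at 607, 530 and 481 CPM in WT sedentary and at 275, 385 and 381 CPM in SCA1 sedentary mice. The groups did not overlap for Cbln1, against 5.76% of all genes with SCA1 lower. Its log2 fold change was -0.63 (SE 0.14, edgeR adjusted p = 0.166), and -0.47 (edgeR adjusted p = 0.0593) without mice 16 and 55.

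Neurod1 (ENSMUSG00000034701, chr2:79282865-79287294), a bHLH factor that granule cells need to differentiate and survive, was at 285, 295 and 211 CPM in WT sedentary and 275, 251 and 241 CPM in WT exercise mice. SCA1 sedentary mice were at 113, 185 and 229 CPM and SCA1 exercise mice at 168, 278 and 205 CPM. The sedentary groups overlapped, since mouse 195 was above WT mouse 192. Neurod1 had the most negative log2 fold change of the members in sedentary mice, -0.59 (SE 0.24, edgeR adjusted p = 0.441), and -0.33 (SE 0.16) without mice 16 and 55. Its annotated exons share 6.71% of their length with Cerkl on the same strand, so reads there cannot be assigned to one gene.

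Zic1 (ENSMUSG00000032368, chr9:91240111-91247863), a zinc finger factor of granule cells and their progenitors, was at 802, 794 and 663 CPM in WT sedentary and 819, 745 and 727 CPM in WT exercise mice. It was at 443, 583 and 717 CPM in SCA1 sedentary and at 589, 796 and 704 CPM in SCA1 exercise mice. The groups overlapped in each comparison. The log2 fold change between the sedentary groups was -0.37 (SE 0.17, edgeR adjusted p = 0.486), and -0.19 (SE 0.12) without mice 16 and 55.

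Zic2 (ENSMUSG00000061524, chr14:122711827-122717264), a factor of the same family, was at 357, 312 and 321 CPM in WT sedentary and 311, 304 and 285 CPM in WT exercise mice. It was at 146, 255 and 272 CPM in SCA1 sedentary and at 216, 285 and 270.2 CPM in SCA1 exercise mice. All 6 SCA1 mice and all 3 running WT mice were below the lowest WT sedentary mouse. Taken 1 group at a time, 5.76% (SCA1 sedentary), 5.01% (SCA1 exercise) and 11.1% (WT exercise) of all genes lay below without overlap. The share of all genes with the joint pattern was not counted. The log2 fold change of SCA1 sedentary against WT sedentary mice was -0.56 (SE 0.19, edgeR adjusted p = 0.360). Leaving out mice 16 and 55 gave -0.30 (SE 0.087) with the lowest adjusted p of the members in that setting, 0.0877 in edgeR. An RNA annotated on the opposite strand, 2610035F20Rik, covers 31.5% of the Zic2 exon length, and forward-strand read pairs made up 0.158% of the Zic2 counts of both strands.

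Pax6 (ENSMUSG00000027168, chr2:105499234-105530952), a paired-box factor expressed throughout the granule cell lineage, was at 129, 127 and 124 CPM in WT sedentary and 126, 138 and 128 CPM in WT exercise mice. It was at 66.4, 151 and 146 CPM in SCA1 sedentary and at 92.0, 145 and 128 CPM in SCA1 exercise mice. The SCA1 sedentary group thus held both the lowest level and the highest levels of the 12 libraries. Pax6 gave a log2 fold change of -0.063 (SE 0.25, edgeR adjusted p = 0.953) with all libraries and changed sign to 0.25 (SE 0.081, edgeR adjusted p = 0.113) without mice 16 and 55.

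Fat2 (ENSMUSG00000055333, chr11:55141435-55227483), a large protocadherin found on parallel fibres, was at 2143, 2122 and 2577 CPM in WT sedentary and 2129.8, 2165 and 2297 CPM in WT exercise mice. It was at 1001, 2295 and 2251 CPM in SCA1 sedentary and at 1312, 2046 and 2161 CPM in SCA1 exercise mice. Mice 16 and 55 were low, and the other 10 mice lay between 2046 and 2577 CPM. Between the sedentary groups Fat2 had a log2 fold change of -0.30 (SE 0.27, edgeR adjusted p = 0.734) with them and 0.014 (SE 0.093) without them.

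Slc17a7 (ENSMUSG00000070570, chr7:44813305-44825644), which loads glutamate into the vesicles of parallel fibres, was at 454, 432 and 430.1 CPM in WT sedentary and 401, 367 and 380.0 CPM in WT exercise mice. It was at 296, 416 and 362 CPM in SCA1 sedentary and at 317, 371 and 391 CPM in SCA1 exercise mice. As for Zic2, the 9 mice of the other 3 groups were all below the lowest WT sedentary mouse. The shares per group are those given for Zic2, and the joint share was not counted. In sedentary mice its log2 fold change by genotype was -0.29 (SE 0.13, edgeR adjusted p = 0.468), and -0.16 (SE 0.085) without mice 16 and 55. Slc17a6, the vesicular transporter of mossy and climbing fibre neurons and of deep nuclei, was at 123 CPM in mouse 16 and 61.4 CPM in mouse 55, against 11.8 to 40.9 CPM in the others.

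Reln (ENSMUSG00000042453, chr5:22089452-22549700), whose product granule cells secrete, was at 941, 979 and 1024 CPM in WT sedentary and 1025, 1042 and 1072 CPM in WT exercise mice. It was at 567, 1050.3 and 1185 CPM in SCA1 sedentary and at 701, 1123 and 1123 CPM in SCA1 exercise mice. Each WT exercise mouse was above each WT sedentary mouse, against 10.1% of all genes. With mice 16 and 55 set aside, so was each SCA1 mouse, a pattern whose share among all genes was not counted. For Reln the log2 fold change between the sedentary groups was -0.071 (SE 0.24, edgeR adjusted p = 0.948), and 0.21 (SE 0.083, edgeR adjusted p = 0.187) without these mice. The 9 genes of its receptors and their signalling (among them Lrp8, Vldlr and Dab1) had a median log2 fold change of -0.012, from -0.16 for Dab1 to 0.20 for the kinase Src. Of these, 0 of 9 passed the threshold for a call defined below, against 0.0344% of all genes. Without mouse 16 the SCA1 sedentary mean went from 103 to 115 CPM for Dab1 and from 82.8 to 77.3 CPM for Src. The WT sedentary means were 114 and 72.2 CPM.

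The comparison of SCA1 sedentary with WT sedentary mice, which asks what the genotype changes without running, therefore gave 10 of 10 members with a negative log2 fold change, against 47.5% of all genes tested. Their median was -0.36, and that of all tested genes 0.016. With a call defined as an adjusted p under 0.05 together with a log2 fold change over 0.5 in size, 0 of 10 members were called, against 0.0344% of all genes (7 of 20341). Before adjustment, 6 members had an edgeR p under 0.05 in the lower direction (Gabra6, Cbln3, Neurod1, Zic1, Zic2 and Slc17a7), against 4.55% of all genes. The groups did not overlap, with SCA1 lower, for 4 members (Gabra6, Cbln3, Zic2 and Slc17a7), against 5.76% of all genes, and the exact permutation test then gave p = 0.1, the smallest value that 3 against 3 mice allow. The widest 95% interval of a member's log2 fold change in this comparison, that of Fat2, ran from -0.89 to 0.29.

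Without mice 16 and 55 the median of the members was -0.18 and 7 of 10 were negative, against 48.4% of all genes. None was called, against 1.00% of all genes. Before adjustment, Gabra6, Cbln3 and Zic2 had an edgeR p under 0.05 in the lower direction, against 9.51% of all genes, and Pax6 and Reln in the higher direction, against 10.7%. In this setting 2 SCA1 sedentary mice stand against 3 WT sedentary mice. The mouse numbers also differ, since both SCA1 mice (194 and 195) have numbers over 150 and only mouse 192 of the WT mice does. Against mouse 192 alone, the mean of the 2 SCA1 mice was 207 against 211 CPM for Neurod1 and 649.9 against 663 CPM for Zic1. Mouse 192 was, however, the lowest of all WT mice for both genes. The WT exercise mice with numbers over 150 had means of 246 CPM for Neurod1 and 736 CPM for Zic1. For the other members the SCA1 mean was at 399.8 against 477 CPM for Gabra6, 718 against 825 CPM for Cbln3, 264 against 321 CPM for Zic2 and 149 against 124 CPM for Pax6. It was at 143 against 175 CPM for Gabrd, 2273 against 2577 CPM for Fat2, 389 against 430 CPM for Slc17a7 and 1118 against 1024 CPM for Reln. With 1 WT mouse there was no test.

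**Figure D3:**
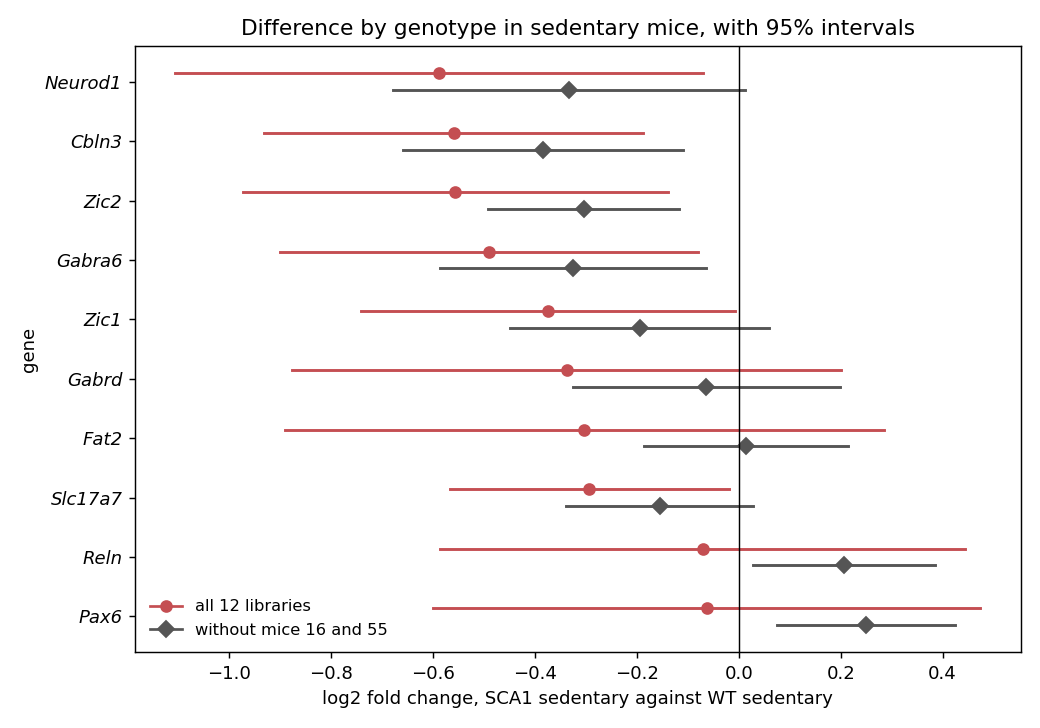
Points show the log2 fold change of SCA1 sedentary against WT sedentary mice for each member (x axis), with 95% intervals as lines, from all 12 libraries (red) and without mice 16 and 55 (grey). Every red point is below 0, and the grey points run from -0.38 for Cbln3 to 0.25 for Pax6.

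In WT mice, running was set against the sedentary state. The members' log2 fold changes lay between -0.25 for Gabrd and 0.093 for Reln, with a median of -0.048. No member was called, nor was any gene (0% of 20341), and 0 members had an unadjusted edgeR p under 0.05, against 1.91% of all genes in the lower and 2.78% in the higher direction. The 0% depends on the model: up to 312 genes were called under the alternatives given at the end. The study itself, with DESeq2, reports differentially expressed genes for this comparison. Running mice were lower without overlap for Zic2 (log2 fold change -0.14) and Slc17a7 (-0.20), against 11.1% of all genes, and higher without overlap for Reln (0.093), against 10.1%, each with an exact permutation p of 0.1. For Slc17a7 this was a mean of 383 ± 17.4 CPM in running and 439 ± 13.2 CPM in sedentary WT mice (SD, n = 3 each). Mice 16 and 55 belong to neither group but enter the estimate of the spread. With them left out, Gabrd (-0.24) and Slc17a7 (-0.19) had an unadjusted edgeR p under 0.05 in the lower direction, against 6.80% of all genes, and the lowest edgeR adjusted p of the members was 0.308. Other marker lists moved in the same comparison. Choroid plexus genes summed to 6.19 to 396 CPM in WT sedentary and 788 to 1866 CPM in WT exercise mice, and oligodendrocyte genes to 3066 to 3954 and 2563 to 2698 CPM, and the part of these tissues in the members' values was not tested.

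In SCA1 mice, running against the sedentary state gave log2 fold changes of up to 0.31, for Neurod1 (SE 0.24), with a median of 0.14 and 9 of 10 above 0, against 48.1% of all genes. Gabra6 followed at 0.30 (SE 0.19), Zic1 at 0.26 (SE 0.17) and Cbln3 at 0.26 (SE 0.17). The groups overlapped for all 10 members, whereas 2.07% of all genes were lower and 2.43% higher without overlap, and the smallest exact permutation p was 0.3. In this comparison 0 members were called, as was 0% of all genes. At an unadjusted edgeR p under 0.05 there were also 0 members, against 0.978% of all genes lower and 1.19% higher. Each of these groups holds 1 of the 2 mice that stood apart, and without them the median was 0.047. Gabra6 was then at 0.33 (SE 0.13, edgeR adjusted p = 0.565). It was the 1 member with an unadjusted edgeR p under 0.05, against 3.69% of all genes in the higher direction. Neurod1 was at 0.23, Zic1 at 0.20 and Cbln3 at 0.20. Pax6 (-0.13), Fat2 (-0.12) and Slc17a7 (-0.034) were below 0 in this setting.

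Between the running groups, SCA1 exercise against WT exercise gave 10 negative values, the most negative being -0.34 for Cbln3, against 49.3% of all genes. Cbln3 was at 768 ± 108 CPM in SCA1 and 973 ± 53.5 CPM in WT running mice (SD, n = 3 each), and was the only member without overlap, against 6.92% of all genes with SCA1 lower. Fat2 (-0.26), Neurod1 (-0.24) and Zic2 (-0.22) followed. No member was called, against 0% of all genes (lowest edgeR adjusted p = 0.960), and 0 members had an unadjusted p under 0.05, against 1.48% of all genes lower and 1.45% higher. Leaving out mouse 55 and mouse 16 gave -0.23 for Cbln3, -0.10 for Zic2, -0.069 for Neurod1 and -0.054 for Fat2, with 5 of 10 below 0, against 47.0% of all genes.

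Set against WT sedentary mice, which also served the first 2 comparisons, SCA1 exercise mice were the lowest for Zic2, with a log2 fold change of -0.36. Zic2 and Slc17a7 (-0.29) were lower without overlap, against 5.01% of all genes, and 0 members were called, against 0%. The other values of at least 0.2 in size were Fat2 (-0.31), Cbln3 (-0.30), Neurod1 (-0.28) and Gabrd (-0.25). Slc17a7 was the 1 member with an unadjusted edgeR p under 0.05 (0.041), against 1.53% of all genes in the lower direction, and its 95% interval ran from -0.56 to -0.014. With mice 16 and 55 left out, Zic2 (-0.23) and Slc17a7 (-0.19) had an unadjusted p under 0.05 in the lower direction, against 4.13% of all genes, and Reln (0.21) in the higher direction, against 4.35%, with a lowest edgeR adjusted p of 0.464. Because the control mice are the same, agreement of these values with those of SCA1 sedentary or WT exercise mice against WT sedentary mice is not independent.

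The interaction of genotype and running, which asks whether running changed a member differently in the 2 genotypes, was positive for 8 of 10 members, against 48.9% of all genes. It was largest for Gabra6 at 0.43 on the log2 scale (SE 0.27, 95% interval -0.15 to 1.01), followed by Neurod1 at 0.35, Zic2 at 0.34, Gabrd at 0.33, Zic1 at 0.24, Cbln3 at 0.22 and Slc17a7 at 0.20. None was called, against 0% of all genes (lowest edgeR adjusted p = 0.9999), and the lowest unadjusted edgeR p of a member was 0.130. Without mice 16 and 55 Gabra6 was at 0.46 (SE 0.17, edgeR adjusted p = 0.2503) and had an unadjusted p under 0.05, against 6.86% of all genes in the higher direction. The other values listed were then smaller, at 0.26 for Neurod1, 0.20 for Zic2, 0.26 for Gabrd, 0.18 for Zic1, 0.15 for Cbln3 and 0.16 for Slc17a7. Pax6 (-0.18), Reln (-0.094) and Fat2 (-0.068) were below 0 in this setting.

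Averaged over both activity groups, SCA1 against WT mice gave -0.45 for Cbln3 (SE 0.12, edgeR adjusted p = 0.220), -0.41 for Neurod1, -0.39 for Zic2, -0.28 for Fat2, -0.27 for Gabra6 and -0.25 for Zic1. An exact permutation test that exchanged mice within each activity group was run for each of the 10 members, without adjustment, and gave p = 0.005 for Cbln3, the smallest value this design allows, p = 0.01 for Zic2 and p = 0.04 for Slc17a7. No member was called, against 0.118% of all genes, and Cbln3, Neurod1 and Zic2 had an unadjusted edgeR p under 0.05 in the lower direction, against 4.25%. Cbln3 was at 961 CPM in WT and 706 CPM in SCA1 mice as the mean of 6 mice each, and without mice 16 and 55 its value was -0.31 (SE 0.090, edgeR adjusted p = 0.148), the exact test not being repeated there. In that setting the values were -0.20 for Neurod1, -0.20 for Zic2, -0.020 for Fat2, -0.097 for Gabra6, -0.11 for Zic1 and -0.076 for Slc17a7. Cbln3 and Zic2 then had an unadjusted p under 0.05 in the lower direction, against 5.57% of all genes, and Pax6 and Reln, both at 0.16 and below 0 with all libraries, in the higher direction, against 6.16%. Running against sedentary mice, averaged over both genotypes, gave values under 0.2 in size for all 10 members, also without mice 16 and 55. With all libraries 0 were called, against 0% of all genes, and 0 had an unadjusted edgeR p under 0.05, against 1.39% of all genes lower and 2.16% higher.

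**Figure D4:**
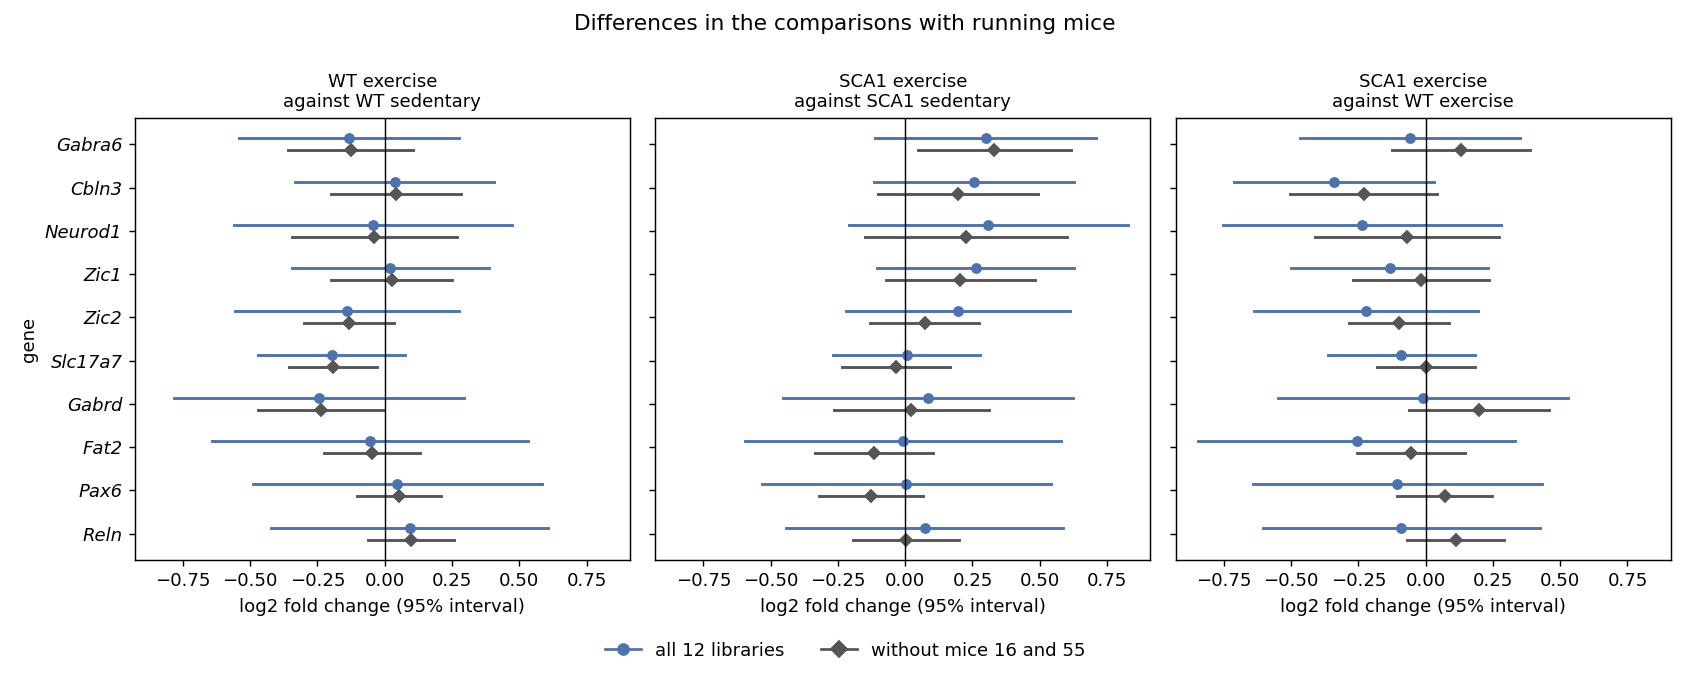
Points show the members' log2 fold changes (x axis) for running in WT mice, running in SCA1 mice, and genotype among running mice, with 95% intervals as lines, from all 12 libraries (blue) and without mice 16 and 55 (grey). All 30 intervals from the 12 libraries in these 3 comparisons include 0, and with SCA1 exercise against SCA1 sedentary mice the 4 highest points are Neurod1, Gabra6, Zic1 and Cbln3.

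The members varied together across the 12 libraries, with Pearson correlations of log2 CPM between 0.52 and 0.98 over the 45 pairs of members (median 0.79). Without mice 16 and 55 the same correlations ran from -0.83 (Slc17a7 with Reln) to 0.94 (Neurod1 with Zic1), with a median of -0.096 and 26 pairs below 0. Gabra6, Cbln3, Neurod1, Zic1 and Zic2, grouped after their values were seen, kept correlations of 0.60 to 0.94 with each other over these 10 libraries. Pax6 and Reln correlated at 0.51 and Gabrd and Fat2 at 0.61, while Reln with Zic2 was at -0.78. These are descriptions over 12 and 10 libraries that share library totals. In mouse 194, for example, Cbln3 was 0.60 and Gabra6 0.58 below the WT sedentary mean on the log2 scale, whereas Pax6 was 0.26 and Reln 0.10 above it.

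**Figure D5:**
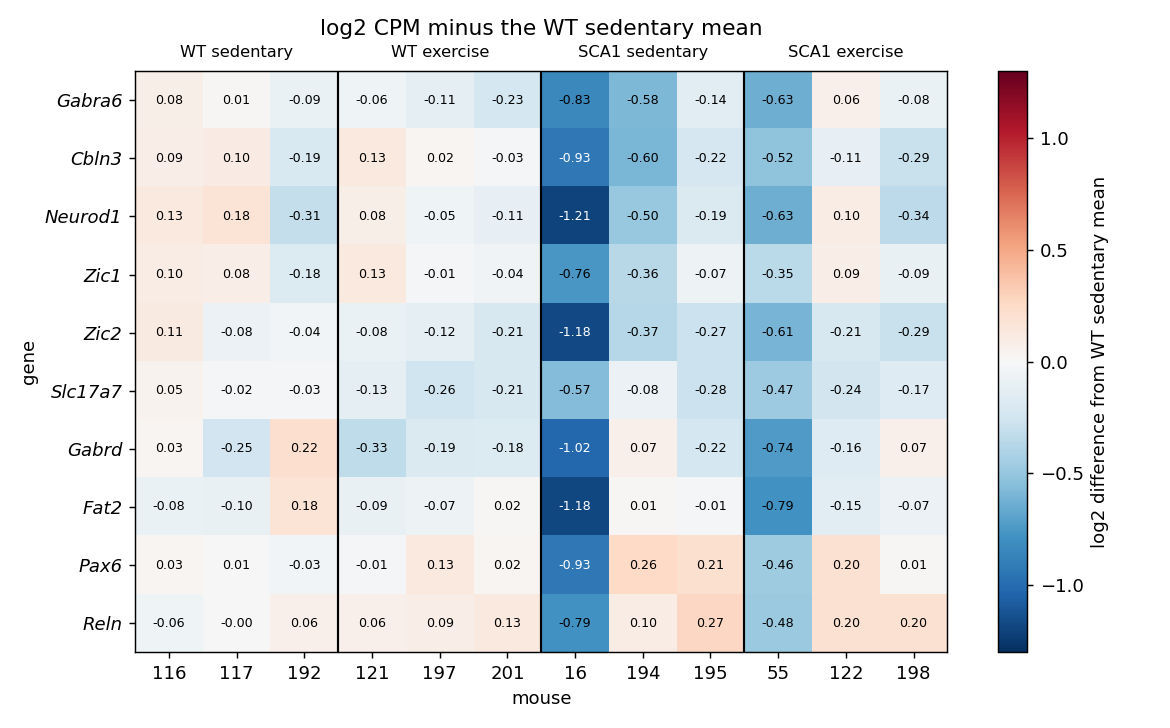
Colours and printed values give log2 CPM minus the mean of the WT sedentary mice for each member (rows) in each mouse (columns), with vertical lines between groups. Mouse 16 lies between -1.21 for Neurod1 and -0.57 for Slc17a7, and in mouse 194 the members differ from -0.60 for Cbln3 to 0.26 for Pax6.

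Outside the members, the 5 genes whose log2 CPM over the 12 libraries was most like the mean of the members' standardized values were Rims2, a presynaptic scaffold protein, at r = 0.98, Ntm at 0.98, Mctp1 at 0.98, Cadm3 at 0.97 and Usp3 at 0.97, of 16767 genes with a mean of at least 1 CPM. Without mice 16 and 55 these correlations were between 0.56 for Cadm3 and 0.91 for Rims2.

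A wider list of 15 granule cell genes was also followed. In SCA1 sedentary against WT sedentary mice 12 of 15 were negative, against 47.5% of all genes, and 0 were called, against 0.0344%. An unadjusted edgeR p under 0.05 was found for 5, all lower, against 4.55% of all genes, and the median log2 fold change was -0.19. Grm4, a presynaptic glutamate receptor of parallel fibres, was lowest at -0.76 (SE 0.28, edgeR adjusted p = 0.388), and Kcnk9, a potassium leak channel of granule cells, highest at 0.33 (SE 0.16, edgeR adjusted p = 0.530). The list summed to 3909 CPM in mouse 16, 4827 CPM in mouse 55 and 5881 to 7486 CPM in the other 10. Without these 2 mice its median was 0.071, with 9 of 15 above 0, where 48.4% of all genes were below 0, and 0 called, against 1.00%. An unadjusted edgeR p under 0.05 was found for 4 in the lower direction, against 9.51% of all genes, and for 1 in the higher, against 10.7%. That 1 was Kcnk9 at 0.45, whose edgeR adjusted p of 0.0460 passed but whose log2 fold change was inside the limit of 0.5. Glutamate receptor genes through which granule cells receive mossy fibre input (Grin1, Grin2a, Grin2b, Grin2c, Gria2 and Gria4) ran from -0.26 for Gria4 to 0.76 for Grin2b (SE 0.38, edgeR adjusted p = 0.531), with 0 of 6 called. Leaving out the 2 mice, 5 of 6 were above 0, Grin2b was at 0.21, and 0 were called. Of 5 genes listed for proliferating granule cell progenitors, Atoh1 had at most 3 read pairs in any library, and the list summed to between 15.3 CPM (mouse 195) and 23.97 CPM (mouse 55). Most of this sum was Gli1, with group means of 15.1 to 16.6 CPM. The group means were 0.55 to 0.82 CPM for Mki67 and 0.34 to 0.37 CPM for Top2a, so the sum is not a level of proliferating cells.

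Among the other cell types, the 7 Purkinje cell genes all had negative log2 fold changes by genotype in sedentary mice, with a median of -0.80, and 2 were called: Calb1 at -0.82 and Pcp4 at -1.17 (edgeR adjusted p = 0.0398 and 0.0126). Among all genes, 0.0344% were called. Without mice 16 and 55, Calb1 was at -0.73 and Pcp4 at -1.12, and 6 of 7 were called, against 1.00% of all genes. The 6 oligodendrocyte genes had a median of 0.14 with all libraries and -0.43 without these mice, and the 5 Bergmann glia and astrocyte genes -0.36 and -0.48, with 0 called in both settings.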

How the data were processed

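The authors checked reads with FastQC, trimmed them with fastp 0.24.0, aligned them to GRCm39 with STAR 2.7.10a and deposited the gene counts (read pairs, for both strands together and for each strand) without normalization (versions per the submitters' processing notes). Reverse-strand counts were used, as only 5.54% to 6.01% of stranded counts fell on the forward strand. CPM, log2 CPM (prior count 2) and all tests were computed here with R 4.3.3. In edgeR 4.0.16, genes were filtered with filterByExpr, scaled by TMM and fitted in 1 quasi-likelihood model of 4 groups. Calls needed a Benjamini-Hochberg adjusted p below 0.05 with a log2 fold change beyond 0.5 in either direction, and each member's CPM was additionally put through an exact permutation test (two-sided). DESeq2 1.42.0 was an alternative. The test was checked on simulated data. Members and lists were chosen with earlier results of these data known. Some genes of these lists are not reported here and were left out of list sums and counts. All members are named; other genes are those called, the extremes of a list, partners of a member and the 5 most alike. Outside the sedentary comparison, a member's log2 fold change from all libraries is given from 0.2 in size or where groups did not overlap. Genes and promoters follow GENCODE M39 on GRCm39. No 2 libraries were identical. RNA integrity was above 8 in all but 2 samples per the study's methods, and which ones is not given in the sources used here. Those 2 were prepared with a shorter fragmentation and fewer PCR cycles. The labels name mice but no batch. Each library is a different mouse, so p-values measure the spread between mice together with that of dissection and library preparation.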

Additional observations from a re-analysis of the deposited data

How the results depend on the processing

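Over 24 alternatives per comparison of 2 groups and 22 for the interaction and the averages (RLE or no scaling factors, a minimum of 1 count in any or 10 counts in each library, counts without strand, DESeq2, the compared groups only, chromosome Y expression or bands of mouse numbers in the model, mice 16 and 55 left out, each of 12 mice left out, no limit on the fold change), 0 members were called. The lowest adjusted p was 0.0455, for Cbln3 in DESeq2 on all 12 libraries in SCA1 against WT mice over both activity groups, at a log2 fold change of -0.45 that is inside the limit of 0.5. Of the 41 member values given from all 12 libraries, 5 changed sign. In SCA1 sedentary against WT sedentary mice, Pax6 was 0.13 and Reln 0.10 when the band of the mouse number was added as a block, and Pax6 0.25, Fat2 0.014 and Reln 0.21 without mice 16 and 55. Leaving out 1 mouse at a time gave -0.26 to 0.23 for Pax6 and -0.28 to 0.19 for Reln, and the positive values came without mouse 16. With the bands, Fat2 was 0.037 in SCA1 exercise against WT exercise and Neurod1 0.011 in SCA1 exercise against WT sedentary mice. Of the 39 member values under 0.2 in size that are only counted, 30 changed sign. The band of numbers under 100 holds mice 16 and 55 alone, both SCA1. The number of all genes called in SCA1 sedentary against WT sedentary mice was 7, and 0 to 205 over the alternatives. In the other comparisons it was 0 to 312 for WT exercise and 0 to 89 for SCA1 exercise against WT sedentary mice, 0 to 78 for SCA1 exercise against WT exercise and 0 to 1 against SCA1 sedentary mice, 0 to 2 for the interaction, 0 to 177 for genotype (24 as reported) and 0 to 6 for running. No paired analysis was possible because the mouse numbers are not shared between groups. With 3 mice per group the 95% intervals were wide for some members, that of Pax6 in the sedentary comparison running from -0.60 to 0.47, which leaves its direction undetermined.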
